A study of Mus musculus with 13 samples.

Results

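The central Hoxa genes Hoxa5, Hoxa6, Hoxa7, Hoxa9 and Hoxa10 were examined as a 40 kb window on mouse chromosome 6, from 52151001 to 52191000 in mm9, in which they lie in this order of rising position. The members are the listed chromatin immunoprecipitation peaks that overlap the window by at least 1 bp. There were 19 of them among 109165 peaks in 9 lists. They comprised 13 H3K4me3 peaks (5 from 748T and 4 each from 106A and 961C), 2 H3K27me3 peaks in 961C and 4 peaks of the fusion protein NUP98-PHF23 (NP23) in 961C. The lists of the SCL-LMO1 line contributed none, and neither did the H3K27me3 lists of 748T and 106A. The gene table used here is on another build, GRCm38.p6, so the exact place of each gene inside the mm9 window was not analysed, and positions are given from the Hoxa5 side (low coordinates) to the Hoxa10 side (high coordinates).

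The study set 2 histone marks beside NP23 binding in mouse leukaemia lines that grow without added cytokines. 748T and 106A are lymphoblast lines from NP23 pre-T LBL of 2 C57BL/6 mice and form a group of 2 samples. 961C is a myeloblast line from an NP23 acute myeloid leukaemia of a C57BL/6 mouse, and the lymphoblast line from a pre-T LBL with SCL and LMO1, on a hybrid of C57BL/6 and C3H, was the control without NP23. Each line gave 1 H3K4me3 and 1 H3K27me3 list, and NP23 was mapped with an antibody to the V5 tag in a library whose title reads 961C-V5. The labels do not say whether those cells differ from the other 961C cultures. Because the control line differs from the others in oncogene and strain together, these cannot be told apart, and with 1 library per line and antibody no difference between lines could be tested. The labelled cell types were not checked against marker genes, since the lists hold peaks on mm9 and no gene names.

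Hox genes encode homeodomain transcription factors whose chromosomal order follows their order of use along the body axis. In blood, the central Hoxa genes are active in stem and early progenitor cells and are normally silenced as cells mature. Trimethylation of histone H3 at lysine 4 (H3K4me3) marks active promoters, trimethylation at lysine 27 (H3K27me3) is laid down by Polycomb complexes at silent developmental genes, and the PHD finger of PHF23 can bind H3K4me3. Hoxa9 sustains self-renewal of leukaemic progenitors and is characteristically active in leukaemias with NUP98 or MLL fusions, often together with Hoxa7 and Hoxa10. Hoxa5 acts in lung and skeletal patterning and in blood progenitors.

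The 5 genes are transcribed from the minus strand, so the promoter of each lies towards the Hoxa10 side of its own body. RefSeq promoter entries on GRCm38.p6 were found for all 5, with 2 start sites for Hoxa10. The 250 bases upstream of each start differ widely in CpG dinucleotides, the sequence feature of promoters that carry H3K4me3 in many cell types. Hoxa5 has 28 CpG, which 7.61% of 32851 mouse promoters equal or exceed, Hoxa6 has 24, Hoxa7 has 7 and Hoxa9 has 3, a count that 71% of promoters equal or exceed. Hoxa10 has 7 at its upstream start and 20 at its downstream start, and the median promoter has 6. The Hoxa5, Hoxa9 and downstream Hoxa10 stretches are printed because they span this range, with every CpG in capitals. They lie at chr6:52204588-52204837 (Hoxa5), chr6:52227371-52227620 (Hoxa9) and chr6:52234940-52235189 (Hoxa10), all on the minus strand of GRCm38.p6. No conversion between builds was made, so their places among the mm9 peaks are not known. The stretch of the upstream Hoxa10 start lies at chr6:52240855-52241104. Were it and the Hoxa5 stretch both inside the 40 kb window at this spacing, the Hoxa5 stretch would fall in its first 5 kb. The upstream Hoxa10 stretch would then fall in its last 5 kb. No list had a peak in the first 5 kb, while H3K4me3 of each NP23 line covered part of the last 5 kb. The spacing on mm9 was not checked, so whether either promoter is marked cannot be said.
Hoxa5: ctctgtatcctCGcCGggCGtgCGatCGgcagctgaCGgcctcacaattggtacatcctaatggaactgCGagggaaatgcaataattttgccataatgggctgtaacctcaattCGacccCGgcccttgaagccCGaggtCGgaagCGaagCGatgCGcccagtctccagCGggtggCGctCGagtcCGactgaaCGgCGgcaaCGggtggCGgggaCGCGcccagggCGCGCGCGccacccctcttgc
Hoxa9: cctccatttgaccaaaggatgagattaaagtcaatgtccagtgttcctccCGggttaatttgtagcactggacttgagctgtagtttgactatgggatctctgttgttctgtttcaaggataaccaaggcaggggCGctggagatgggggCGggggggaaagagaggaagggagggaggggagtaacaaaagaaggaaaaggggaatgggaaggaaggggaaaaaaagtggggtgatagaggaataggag
Hoxa10 downstream start: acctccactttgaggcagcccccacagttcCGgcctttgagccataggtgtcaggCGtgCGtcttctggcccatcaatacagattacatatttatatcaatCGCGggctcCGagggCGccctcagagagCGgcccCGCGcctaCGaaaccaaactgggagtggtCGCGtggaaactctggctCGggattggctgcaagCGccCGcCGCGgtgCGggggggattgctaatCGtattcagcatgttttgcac
The capitals are dense in the Hoxa5 and Hoxa10 runs and appear at 3 places in the Hoxa9 run. A search of both strands for TGATTNAT, a sequence that Hox and Pbx proteins bind together, found no match in any of the 6 upstream stretches, against 2.82% of all promoters.

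The microRNA gene Mir196b lies between Hoxa9 and Hoxa10 in the order of the gene table. Its 5p product shares its seed, bases 2 to 8 in capitals, with miR-196a-5p, which is encoded in other Hox clusters and is known to repress Hox messages. The sequences differ by C12A, counted from 1 at the 5′ end of miR-196b-5p.
mmu-miR-196b-5p: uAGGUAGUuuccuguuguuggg
mmu-miR-196a-5p: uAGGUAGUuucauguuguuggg

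H3K4me3 covered most of the window in the 3 NP23 lines and none of it in the SCL-LMO1 line. It lay over 69.8% of the 40 kb in 748T, 63.7% in 106A and 76.9% in 961C, against 0% in SCL-LMO1. The pre-T pair averaged 66.8% ± 4.28 (SD, n = 2), and 961C stood above both by more than that SD. An SD from 2 lines cannot show that 961C, with 1 library, stands apart. The lead over 748T was within that SD when only the taller 50% of each list entered (72.8% against 69.5%) and when peaks were joined across gaps of up to 1 kb (79% against 75%). In SCL-LMO1 the nearest H3K4me3 peak on the Hoxa10 side was 346 bp long and began 8399 bp beyond the window, with a maximum of 31 reads, and the nearest on the Hoxa5 side was 564406 bp away. The lowest maximum in that list was 5 reads, so signal under the authors' threshold would not show, and depth per library is unknown.

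**Figure D1:**
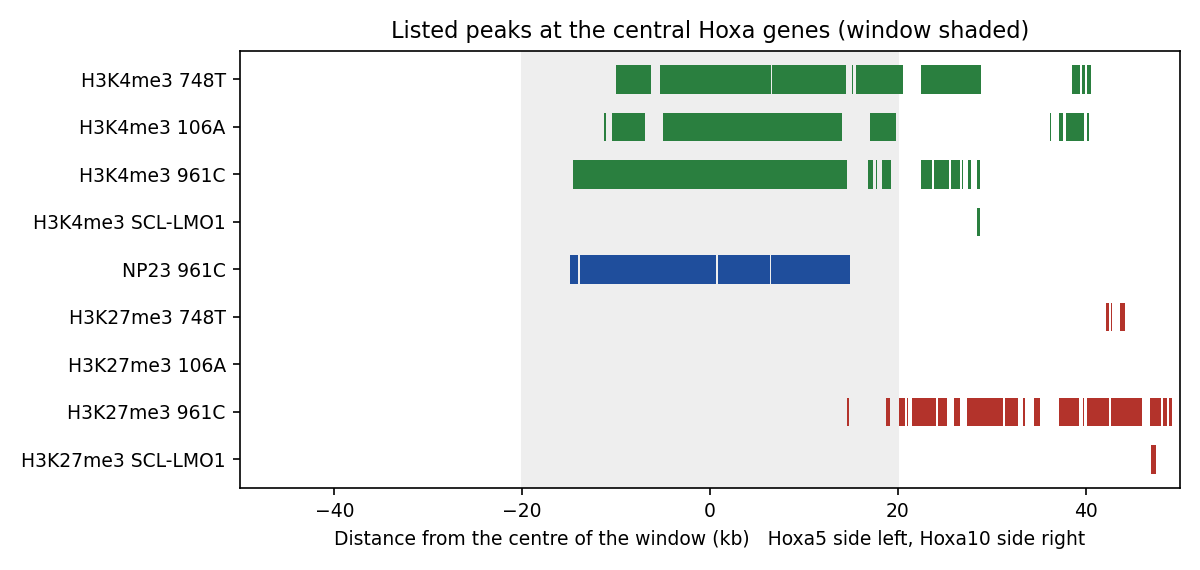
Listed peaks of the 9 lists drawn to scale, with the distance from the centre of the window in kb on the horizontal axis and 1 list per row; the shaded part is the 40 kb window. H3K4me3 of the 3 NP23 lines and NP23 of 961C fill the middle of the window, SCL-LMO1 has no peak in it, and in the stretch drawn, 50 kb to each side of the centre, H3K27me3 of 961C appears from near the Hoxa10 end of the window onwards.

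Cut into 8 bins of 5 kb, the window had 6 bins at least 50% covered by H3K4me3 in each NP23 line and 0 in SCL-LMO1. Over 527972 bins of the same size along the chromosomes, the limit was passed by 0.217% for 748T, 0.329% for 106A, 0.3% for 961C and 0.267% for the SCL-LMO1 line. Neighbouring bins share peaks and are not independent. The third to the seventh bin passed it in all NP23 lines: 80.4%, 60.8% and 100% of the third bin was covered in 748T, 106A and 961C, and 99.7% to 100% of the fourth bin. The fifth bin was covered in full in each, the sixth to 96.5% in 748T and in full in 106A and 961C, and the seventh to 89.4%, 80.5% and 91%. Bins that passed it in the 3 NP23 lines and free of H3K4me3 in SCL-LMO1 numbered 8 along all chromosomes (0.00152%), and 5 of the 8 were these 5 bins.

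The lines differed at the ends. On the Hoxa5 side, the first bin held no peak of any list. The second was 91.6% covered in 961C, 13.9% in 106A and 0.2% in 748T. On the Hoxa10 side the order turned, with the eighth bin covered to 91.7% in 748T, 54.9% in 106A and 32.9% in 961C. The order of the eighth bin did not continue beyond the window. In the next 2 bins H3K4me3 covered 61.3% and 75.9% in 748T and 48% and 42.6% in 961C, while 106A had none. Over the 40 kb beyond the window on that side it covered 20.7% in 748T, 11.3% in 961C and 7.12% in 106A.

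**Figure D2:**
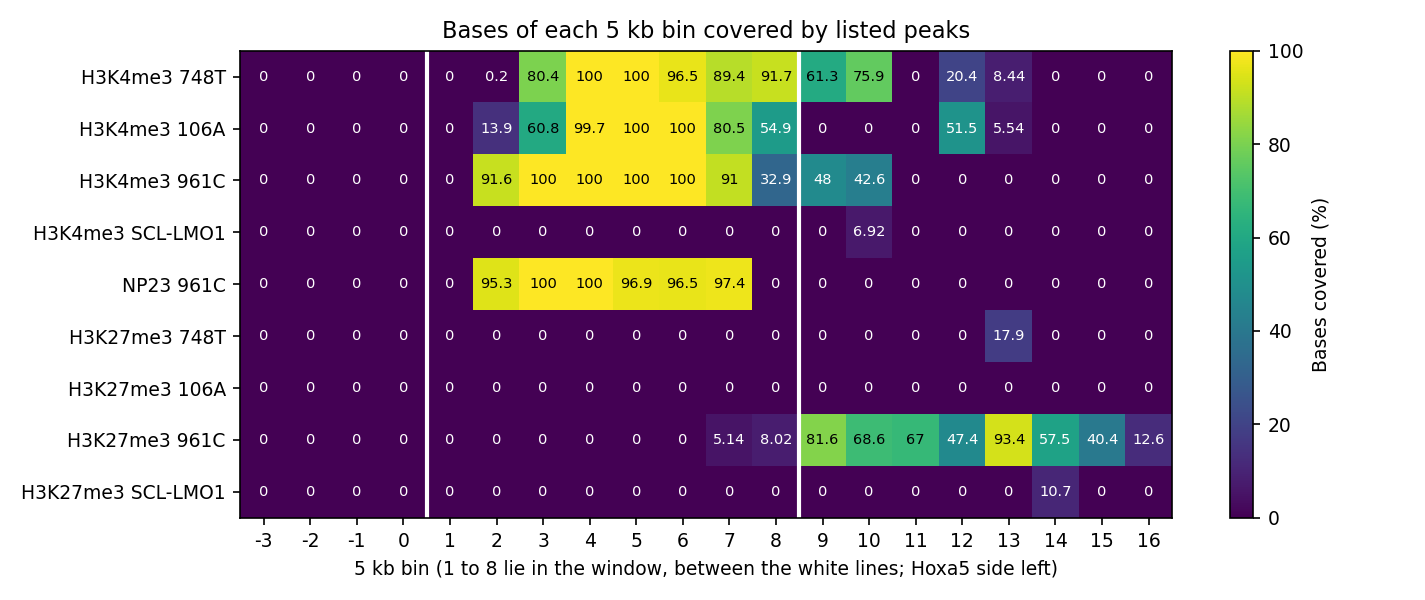
Percent of bases covered by listed peaks in 5 kb bins, with lists in rows and bins in columns from the Hoxa5 side to the Hoxa10 side; bins 1 to 8 lie in the window, between the white lines. In bin 2 only 961C exceeds 50% for H3K4me3, and in bin 8 only 748T and 106A do.

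The peaks themselves were among the widest of their lists. In 961C a single H3K4me3 peak ran from 52156421 to 52185551 (29131 bp), the second widest of 17696. In 106A the peak from 52166017 to 52185027 (19011 bp) was the widest of its 16324 peaks, and in 748T the peak from 52165648 to 52177460 (11813 bp) was the second widest of 17544. Of 65970 windows of 40 kb on the same grid, none had more H3K4me3 than this one in 748T or in 106A, and 1 had more in 961C, on chromosome 11 from 96151001 to 96191000. The grid was laid from the window itself, so other windows were not placed to best advantage.

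What was 1 peak in 961C was broken in the pre-T lines. Both had a shorter peak on the Hoxa5 side, from 52160991 to 52164666 in 748T and from 52160584 to 52164040 in 106A, followed by a gap of 981 bp in 748T and 1976 bp in 106A. The gap of 748T lay wholly within that of 106A, and 961C was marked throughout it. 748T had a further gap of 176 bp from 52177461 to 52177636, where 106A and 961C had none. The first 748T peak began 4570 bp after the lower edge of the 961C domain. In 106A, a low peak of 278 bp with a maximum of 16 reads began 3258 bp after it. At the other edge the lines nearly met: the 961C domain ended 79 bp beyond the last 748T peak that overlapped it and 524 bp beyond that of 106A.

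By base, 23331 bp (58.3% of the window) carried H3K4me3 in all 3 NP23 lines, 4945 bp (12.4%) in 961C alone, 1642 bp (4.11%) in 748T alone and 0 bp in 106A alone, while 6283 bp (15.7%) carried it in none. 748T and 106A shared 24629 bp, which were 88.2% of the 748T bases and 96.6% of the 106A bases. 961C shared 81.1% of its bases with 748T and 78.6% with 106A. Within the window the pre-T lines were thus closer to each other, with a base-pair Jaccard index (shared over total bases) of 85.6%, than to 961C, with 74.1% for 748T and 75.4% for 106A.

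Pileup heights are the authors' own values and are not scaled to depth, so they were read within a list only. The 961C domain had a mean height of 37.1 reads and a maximum of 103, against a median peak mean of 16.3 in its list, and 1.01% of that list was as tall or taller. In 748T the 3 long peaks up to 52185472 had means of 56.6, 48.3 and 56.7 reads and maxima of 118, 138 and 140, against a list median mean of 30.2. In 106A the 2 long peaks up to 52185027 had means of 59.1 and 50.6 reads and maxima of 134 and 159, against a list median mean of 35.9. In each NP23 line the central part of the window was thus taller as well as wider than the median peak. The second track of the lists, read as background from its low values, averaged 0.21 to 0.288 reads over the 748T peaks against a list median of 0.197, 0.855 to 1.81 against 1.46 in 106A, and 0 to 0.295 against 0.264 in 961C.

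**Figure D3:**
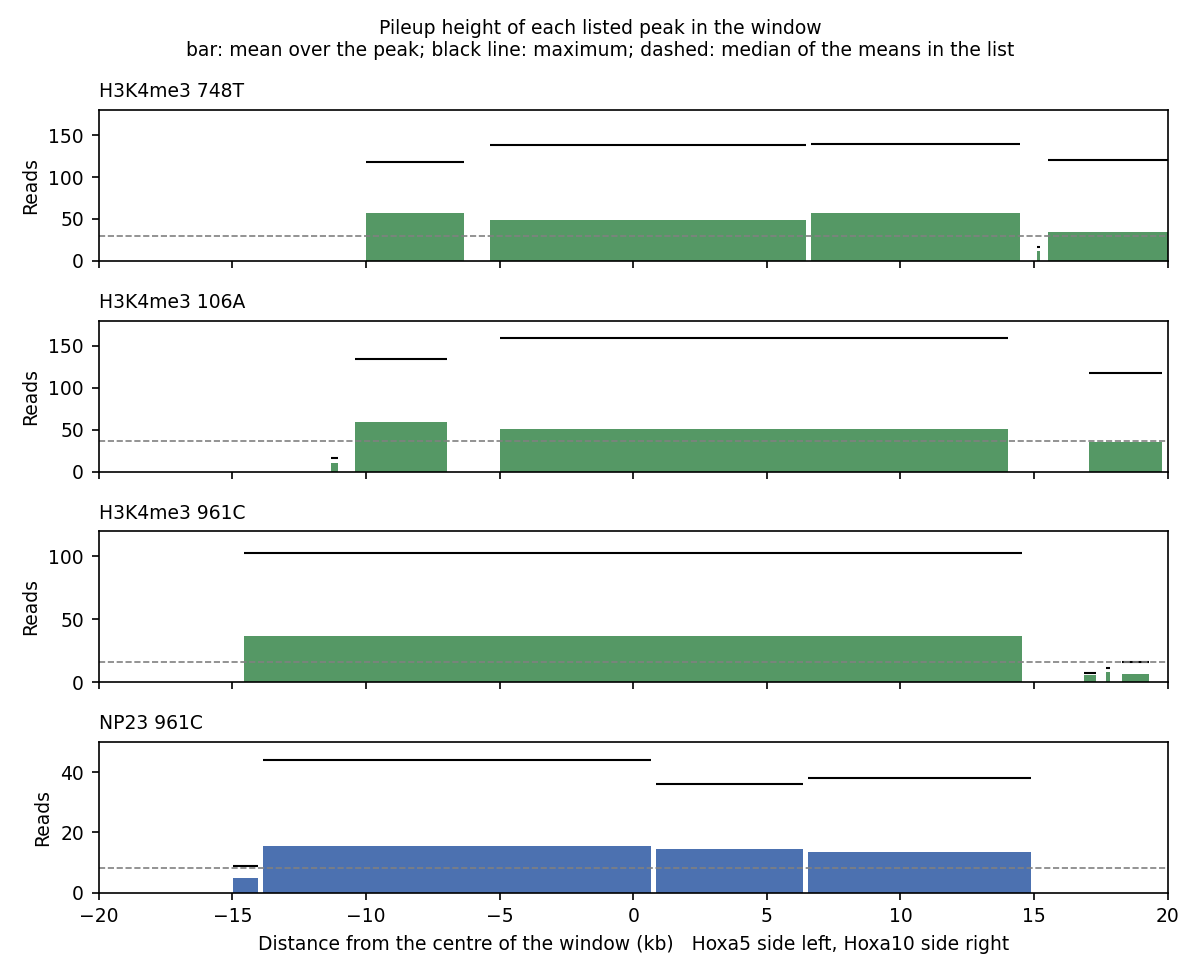
Pileup height in reads of each listed peak along the window, in 1 panel per list: bars give the mean over a peak, black lines its maximum and dashed lines the median of the peak means in that list. The last peaks on the Hoxa10 side reach maxima of 120 reads in 748T (list median 76), 118 in 106A (97) and 16 in 961C (38).

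At the Hoxa10 end of the window the lines differed in height too. Beyond the end of the 961C domain, 748T had peaks from 52186111 to 52186210 and from 52186515 to 52191544, and 106A had one from 52188059 to 52190802. Their mean height was 34.2 reads in 748T and 35.4 in 106A, or 0.652 and 0.689 of that of the other peaks of the window in the same list. In 961C, 3 peaks of 135 to 1040 bp lay there, with a mean height of 6.40 reads, 0.173 of that of the long domain. These 3 had maxima of 7, 11 and 16 reads, below the list median of 38.

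NP23 in 961C matched the H3K4me3 domain nearly edge to edge. Its 4 peaks spanned 29827 bp from 52156043 to 52185869 and covered 73.3% of the window. The lower edge lay 378 bp outside the H3K4me3 domain and the upper edge 318 bp outside it. Of the NP23 bases, 97.6% lay in H3K4me3 of 961C, and 93% of the H3K4me3 bases of 961C lay in NP23. In 6 of the 8 bins NP23 covered at least 50%, against 0.0206% of all bins, namely the second to the seventh, with 95.3%, 100%, 100%, 96.9%, 96.5% and 97.4%. H3K4me3 of 961C also passed 50% in the same 6 bins, a pair of calls that 0.0205% of all bins had. Along all chromosomes 109 bins passed for NP23, and 108 of these also passed for H3K4me3 of 961C. The pairing of the calls is thus not particular to this window. The eighth bin, where H3K4me3 of 961C was low, held no NP23.

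The first NP23 peak was low (925 bp, mean 4.81 reads, maximum 9), and the other 3 were long and even in height. They ran from 52157161 to 52171680 (14520 bp, mean 15.6 reads, maximum 44), from 52171837 to 52177354 (5518 bp, mean 14.7, maximum 36) and from 52177528 to 52185869 (8342 bp, mean 13.7, maximum 38). By width they were the second, the fourteenth and the fourth of 1629 NP23 peaks, in a list with a median width of 164 bp and a median peak mean of 8.07 reads. The 4 peaks made up 0.246% of the list, 3.63% of its bases (29305 bp) and 4.93% of its height summed over bases, at a mean height of 14.5 reads against 10.7 over all listed bases. Gaps of 193, 156 and 173 bp separated them. The last of these shared 67 bp with the 176 bp gap in H3K4me3 of 748T.

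**Figure D4:**
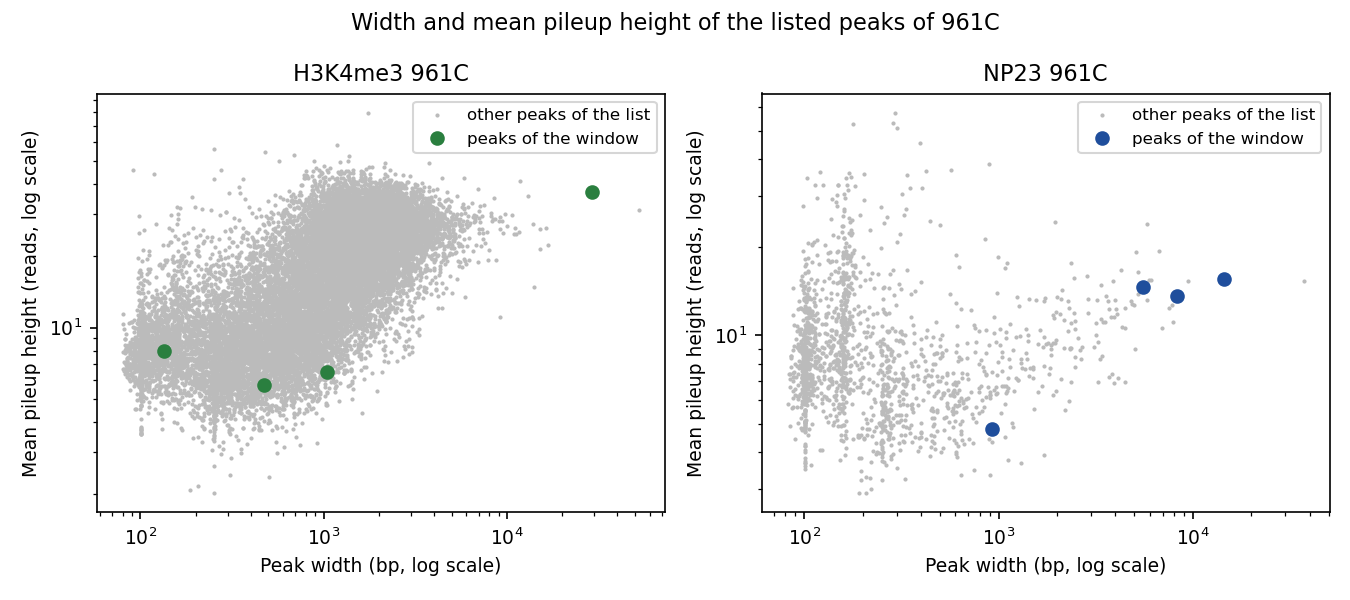
Width in bp against mean pileup height in reads, both on log axes, for the H3K4me3 list (left) and the NP23 list (right) of 961C; coloured points are the peaks of the window and grey points all others. One H3K4me3 peak and 3 NP23 peaks of the window lie among the widest of their lists, and the remaining 4 lie in the lower part of the height range.

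The wider domain of 961C, the widest H3K4me3 peak of its list on chromosome 11 from 96132114 to 96184711, held NP23 at like height: a mean of 14.3 reads over 51075 bp there and 14.5 reads over 29305 bp here. The pre-T lines differed between these places, with H3K4me3 over 7.42% of the chromosome 11 domain in 748T and 2.57% in 106A, against 69.8% and 63.7% of the Hoxa window.

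NP23 was mapped in 961C alone, so the pre-T lines were compared with its positions. H3K4me3 of 748T lay on 78.7% of the NP23 bases of the window, that of 106A on 76.5% and that of SCL-LMO1 on 0%. From the side of the mark, NP23 of 961C lay on 92.7% of the bases that all 3 NP23 lines marked and on 96.1% of those that 961C alone marked. It lay on none of the 1298 bp marked in 748T and 106A without 961C, nor of the 1642 bp marked in 748T alone. Only 696 NP23 bases of the window lay outside H3K4me3 of 961C. This absence was therefore nearly fixed by the match within 961C and says nothing about NP23 in the pre-T lines.

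H3K27me3 was scarce in the window in every line. It covered 0% in 748T, 106A and SCL-LMO1 and 1.65% in 961C, where 2 short peaks fell in the seventh (5.14% covered) and the eighth bin (8.02%). A bin with any H3K27me3 peak was found in 2.41% of all bins in 961C, 1.23% in 748T, 0.893% in 106A and 0.849% in SCL-LMO1, so a window free of the mark is the usual case, and 93.8%, 94.9% and 94.9% of 40 kb windows had none in 748T, 106A and SCL-LMO1. The SCL-LMO1 line thus had neither mark listed at these genes, in lists whose lowest maximum was 5 reads for each mark.

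The 2 H3K27me3 peaks of 961C lay at the end of the domain. The first, from 52185579 to 52185835 (mean 4.74 reads, maximum 9), began 27 bp after the H3K4me3 domain ended, and all its 257 bp lay within the last NP23 peak. The second, from 52189782 to 52190182 (mean 8.61 reads, maximum 14), lay wholly within the low H3K4me3 peak from 52189277 to 52190316, which carried no NP23. 748T and 106A were marked by H3K4me3 over that second peak and not by H3K27me3. Bins with both marks made up 0.151% of all bins in 961C and 2 of the 8 here, a count that rests on low peaks. In the seventh bin the marks shared no base. Its H3K27me3 peak, with a maximum of 9 reads, lay below the list median of 12. In the eighth bin the marks overlapped in an H3K4me3 peak with a maximum of 16 reads, below the list median of 38.

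Beyond the window the pattern of 961C changed. In the next 40 kb on the Hoxa10 side, where the flanking gene Hoxa11 follows in the gene table, 22 H3K27me3 peaks covered 58.6% in 961C, against 2.23% in 748T, 0% in 106A and 1.34% in SCL-LMO1, and the first began 110 bp past the window. The 961C H3K27me3 list was also the largest along all chromosomes, with 8861850 bp in 19469 peaks. The lists of 748T, 106A and SCL-LMO1 held 2237640, 1544658 and 1202101 bp. How far list size enters this contrast was not tested. In the 40 kb on the Hoxa5 side no list had a peak of any kind. The nearest NP23 peaks lay 188759 bp below and 145555 bp above the window.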

How the data were processed

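Chromatin of 4 mouse lines was immunoprecipitated and sequenced in 13 samples, of which 9 came with a peak list. The 4 input samples were not used here. The submitters' processing notes name build mm9, BWA 0.5.9-r26 and CASAVA 1.9. For the peak calling, no program or threshold is given in the sources used here. The authors deposited 1 list per library, whose text field gives, per the file itself, the mean and maximum pileup of the sample and of a second track. No read totals are given, so depth is unknown and heights were compared within a list only.

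Coverage is the percent of bases under listed peaks. Starts count from 0 in the files and from 1 here. Bins of 5 kb were laid from the window start over 21 chromosomes, up to the furthest peak end in any list. A bin was called at 50% coverage. Bin coverage was tested on simulated data, where 400 of 400 bins were recovered exactly. Each simulated peak lay within a single bin, so peaks that cross bin edges, such as the long ones here, were not tried. Python 3.11.15 and numpy 2.4.6 were used.

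No test between lines was made. Every peak overlapping the window was a named region, together with the nearest peak of each list on either side, and the 5 genes were the named genes. The window and genes were chosen with earlier results of these data known. Promoter and microRNA sequences are from RefSeq, GRCm38.p6. Alternatives were the taller 50% of each list, joining peaks across 1 kb, a window 5 kb wider or narrower on each side, bin limits of 25% and 75%, shifted bins and leaving out either pre-T line.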

Additional observations from a re-analysis of the deposited data

How the results depend on the processing

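H3K4me3 coverage of the window kept the order 961C, 748T, 106A in every setting tried, and SCL-LMO1 stayed at 0. Of 75 values recomputed, 57 stayed within their limit and 18 moved. The limit was 1 SD of the pre-T pair, the counting interval of the bases or, for bins, 1.5 times. These limits differ in width, and the counting interval treats bases of the same peak as independent. Many of the 57 compare 0 with 0, so the tally does not measure stability. H3K4me3 coverage moved by more than the SD of the pre-T pair in these cases. With the window 5 kb wider on each side it was 61.9% in 748T, 51% in 106A and 66.3% in 961C, and 5 kb narrower it was 77.8%, 75.8% and 97.1%. Joining peaks across 1 kb gave 75% in 748T. Leaving out either pre-T line gave 63.7% to 69.8% in place of the mean of 66.8%. With 2 lines such a move is always smaller than their SD, so it tells nothing about stability. NP23 covered 71% with the taller 50% of peaks, 74.6% with joined peaks, 58.6% in the wider window and 97.7% in the narrower one. H3K27me3 of 961C rested most on the choice of limits: 1% with the taller 50% of peaks, 3.69% joined, 9.48% in the wider window, which reaches the marked stretch beyond it, and 0.857% in the narrower one. The share of NP23 bases in H3K4me3 of 748T was 81.3% with the taller 50% and 83.4% with joined peaks, and 78.4% in 106A with joined peaks. The 6 called bins of each NP23 line stayed between 4 and 7 under other bin limits and shifts, where the shifted grid held 7 bins in place of 8. No paired analysis was possible because each line has 1 library per mark and no test was made. Depth is unknown, so signal below the authors' thresholds cannot be judged from these lists.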

Other observations

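Besides the 5 bins of the central Hoxa window, 3 other 5 kb bins were at least 50% covered by H3K4me3 in 748T, 106A and 961C and free of it in SCL-LMO1. They lay on chromosome 4 from 94716001 to 94721000, on chromosome 6 from 31166001 to 31171000 and on chromosome 19 from 32831001 to 32836000 (mm9). On chromosome 19 coverage was 96.9%, 96.5% and 96.3% in the 3 lines, and NP23 covered 2.02% of the bin. The bins on chromosome 4 and at 31166001 on chromosome 6 held 58.3% to 70.9% H3K4me3 and no NP23. In the Hoxa bins NP23 covered 96.5% to 100%. These bins were named after their values were seen.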
